A study of Mus musculus with 9 samples.

Results

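The comparison of opossum *CRX* with a control plasmid in mouse embryonic fibroblasts took 6 of the 9 libraries of the study, 3 of metatherian CRX and 3 of control, chosen by their genotype labels alone. Primary MEFs of the strain C57Bl/6 at passage 2 were electroporated with V5-tagged opossum *CRX* (metatherian CRX) or with a plasmid that held puromycin resistance and no homeobox gene (control), so that both groups went through the same electroporation and 5 days of puromycin. The sample labels place 48 h of recovery after selection, whereas the methods of the study place it before selection and give culture overnight afterwards. The transgene was driven from a plasmid in a cell type that does not normally use CRX, and nothing in the sources names separate embryos behind the replicates, so that p-values measure the spread between these samples, which may be technical. The study asked how far a marsupial CRX changes the fibroblast transcriptome relative to the control vector. Here the genes and pathways that moved the same way in all 3 same-numbered pairs of libraries are described.

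CRX is a paired-class homeodomain transcription factor of the OTX family. In the eye it drives the genes of rod and cone photoreceptors, and its homeodomain, with a lysine at the position that reads the bases after the TAAT core, binds TAATCC. Fibroblasts are the cells of connective tissue that secrete collagens, elastin and proteoglycans, and in culture many of them take on smooth muscle actin and other contractile proteins under TGF-beta and serum. Matrix metalloproteinases such as stromelysins and collagenase cut that matrix, and their genes are textbook targets of the AP-1 factors FOS and JUN.

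The deposited table held counts of 22068 genes, with 54145701 to 94699657 counts per library. After a filter on low values, 10029 genes were kept, which took 98.73% to 98.94% of the counts. Both groups were sequenced on 1 chip, as the labels give it. Replicate 3 stood apart from replicates 1 and 2 in both groups. The log2 differences between replicates 1 and 2 had an SD over genes of 0.242 in control and 0.253 with metatherian CRX, whereas those between replicate 3 and the others had an SD of 0.443 to 0.572. The first principal component (49.8% of the variance) separated all 3 control libraries (−30.7 to −5.13) from all 3 metatherian CRX libraries (7.61 to 41.6), and in each group replicate 3 had the highest position on it.

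The genes of mouse *Crx* and its relatives were listed first, since the transgene was given to 1 group only. *Crx* had 0 counts in the control libraries and 4, 0 and 0 in the metatherian CRX libraries. *Otx2*, a close relative of *Crx*, had 1, 0 and 0 counts in control and 11, 15 and 17 with metatherian CRX, so that the groups did not overlap. The reads were aligned to the mouse genome, and these counts do not tell reads of the opossum transgene from transcripts of mouse *Otx2*. *Otx1* had 0, 6 and 0 counts in control and 2, 0 and 0 with metatherian CRX, and the *Obox* genes listed had 0 in all 6. The level of the transgene was therefore not measured here.

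With metatherian CRX, listed genes of matrix glycoproteins, contraction and Wnt signalling fell and none of these lists' members rose past the threshold given below. Matrix proteinases, integrin chains and growth factors changed in both directions. More genes fell than rose. By edgeR's quasi-likelihood test with the replicate number as a block, 177 genes rose (1.76% of the genes tested) and 221 fell (2.2%) at a Benjamini-Hochberg adjusted p under 0.05, the smallest being 0.0193. Together these were 398 genes (3.97%), and a gene past that threshold is named as called below. A number in brackets after a gene, where nothing else is said, is its log2 fold change in this fit. At an unadjusted p under 0.05, 878 genes were higher (8.75%) and 1170 lower (11.7%). The filter on low values asked for a mean FPKM (the count relative to exon length and depth) above 2 in either group. Of the 177 genes, 34 passed it through metatherian CRX alone, and of the 221 genes 50 passed it through control alone, so that these had to differ in that direction, against 201 and 323 of all 10029 genes. All 177 and all 221 moved the same way in each of the 3 pairs. In bulk RNA, fewer cells of a type and less RNA per cell cannot be told apart, which holds for every gene below. The median log2 fold change was 1.02 among the called higher and −1.24 among the called lower genes, and 90 and 158 of them changed at least 2-fold. The 3 libraries of each group did not overlap for 139 of the 177 and 160 of the 221, against 11.4% and 12% of all genes tested. With upper-quartile scaling, which moved the median of all genes from −0.00304 to −0.0348, 157 genes rose and 248 fell.

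Agreement between pairs was wider than the calls. Of all genes tested, 2277 were higher (22.7%) and 2469 lower (24.6%) in all 3 pairs, or 4746 in either direction (47.3%), and 61 were higher (0.608%) and 119 lower (1.19%) by at least 1 on the log2 scale in each pair. These shares, with the 1.76% called higher and 2.2% called lower, are the background for the counts of listed genes below. The differences of pairs 1 and 2 correlated at r = 0.92 across the 10029 genes, and those of pair 3 at 0.38 and 0.40 with them. Genes are not independent replicates, and the sources do not name which libraries were prepared together. The numbers of calls depended on the fit. Without the block 72 genes were called, 30 higher and 42 lower, and when the 3 libraries of human *CRX* joined the fit 3 genes were called, all lower, with 1960 at an unadjusted p under 0.05. Leaving out pair 3 raised the calls to 4217 (2110 higher and 2107 lower), and leaving out replicate 3 of control or of metatherian CRX alone gave 4251 and 4191. In every one of these fits all 398 genes kept their direction.

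**Figure D1:**
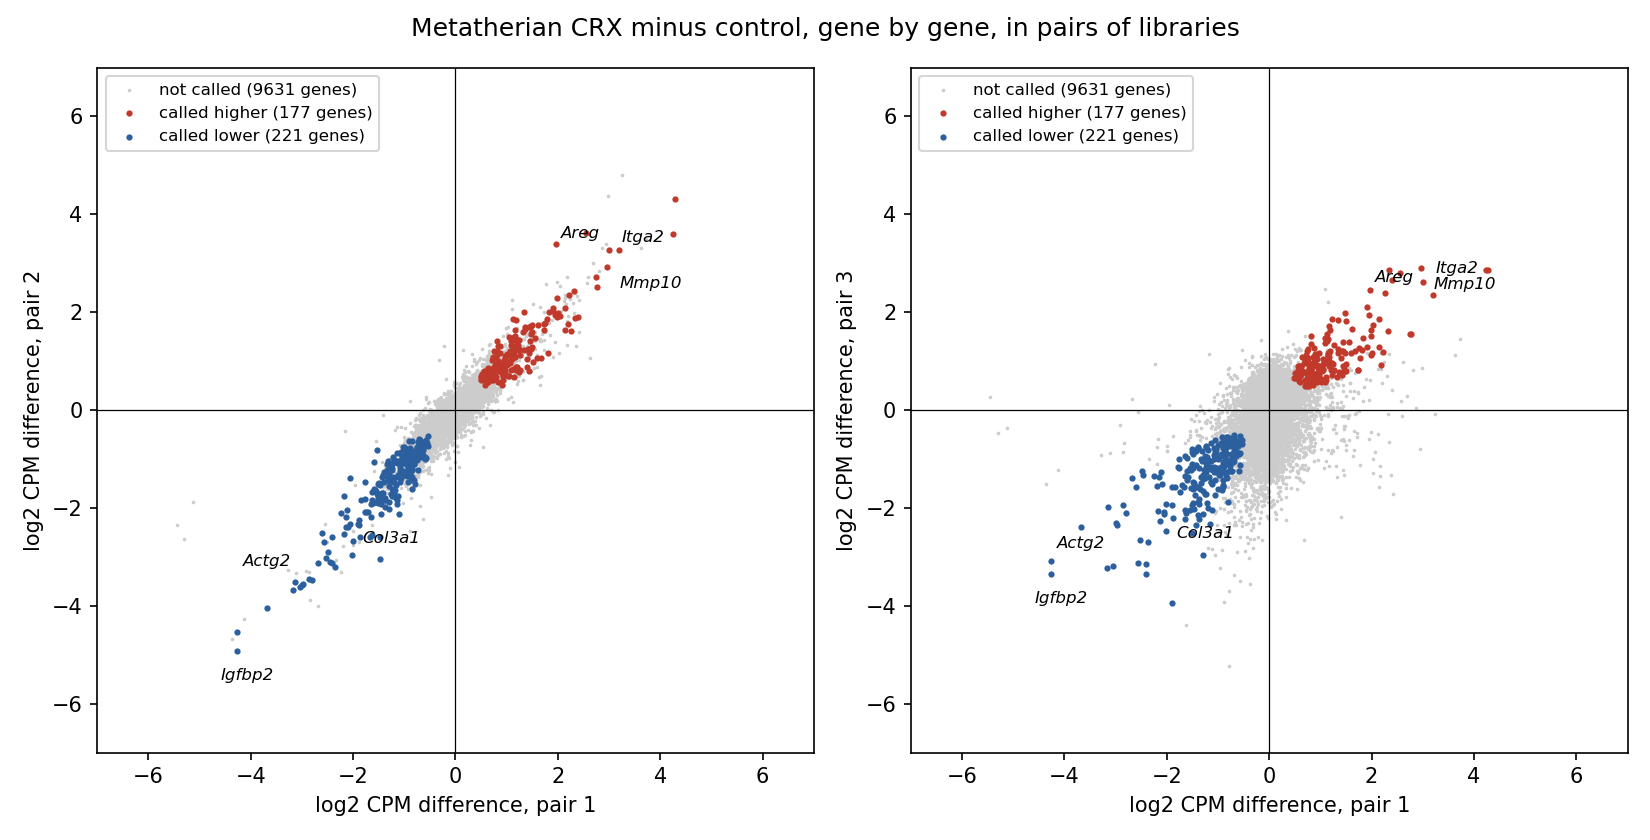
Log2 CPM difference of metatherian CRX minus control for each of the 10029 genes, pair 1 on the horizontal axis against pair 2 (left) and pair 3 (right), with the 177 called higher in red, the 221 called lower in blue and the other genes in grey. Pairs 1 and 2 fall along a line (r = 0.92), pair 3 spreads widely around it (r = 0.38), and called genes lie in the corners where pairs share a direction.

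Genes of matrix-cutting enzymes were among those with the strongest rise. *Mmp10* (stromelysin-2, chromosome 9, 7502342 to 7510242, on the forward strand) measured 0.613, 0.823 and 3.21 CPM in control replicates 1 to 3 and 4.96, 6.40 and 24.1 CPM with metatherian CRX, where CPM is the count relative to the library's total, scaled with TMM factors. All 3 metatherian CRX libraries lay above all 3 controls (log2 fold change 2.96 ± 0.16 SE, adjusted p = 0.0193 by edgeR). *Mmp3* (stromelysin-1, chromosome 9, 7445822 to 7455975, on the forward strand) measured 38.8, 53.6 and 87.7 CPM in control and 149, 205 and 336 CPM with metatherian CRX. Its rise was nearly the same in each pair, at 1.94, 1.93 and 1.94 on the log2 scale (log2 fold change 1.94 ± 0.09 SE, adjusted p = 0.0193 by edgeR). *Mmp13* (collagenase-3) went from 10.5, 13.7 and 22.6 to 71.3, 78.0 and 66.4 CPM, with no overlap (log2 fold change 2.27 ± 0.27 SE, adjusted p = 0.0280 by edgeR), and *Serpinb2*, an inhibitor of plasminogen activators, from 5.84, 9.88 and 3.02 to 29.5, 36.5 and 22.1 CPM (log2 fold change 2.35 ± 0.23 SE, adjusted p = 0.0233 by edgeR).

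These 3 metalloproteinase genes lie in 1 cluster of 10 *Mmp* genes on chromosome 9 between positions 7272514 and 7699416 of mm10, and they were the members of it that passed the filter on low values. Among the other members, which were looked up after these values had been seen, *Mmp1a* measured 0, 0.0650 and 0.735 CPM in control and 1.11, 1.44 and 5.31 CPM with metatherian CRX, and *Mmp1b* 0.0958, 0.152 and 0.297 CPM against 0.485, 0.759 and 0.937 CPM. Both sets of libraries were apart. *Mmp12*, the metalloelastase of macrophages, went the other way in pairs 1 and 2, from 3.08 and 1.76 to 0.112 and 0.157 CPM, but not in pair 3 (0.947 and 2.89 CPM). *Mmp8*, *Mmp27*, *Mmp20* and *Mmp7* had at most 14 counts in any library.

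The bases upstream of the start sites of *Mmp13*, *Mmp3*, *Mmp10* and *Serpinb2* are shown because all 4 hold the letters TGANTCA (in capitals) near the start. These were searched for as AP-1 letters, with any base at N. That base is C in *Mmp13*, G in *Mmp3* and *Mmp10*, and A in *Serpinb2*. Each line gives 120 bases before the RefSeq start site on GRCm38.p6 (mm10), read 5′ to 3′ on the gene's strand. In *Mmp10* the letters GGATTA, which are TAATCC on the other strand, are in capitals as well.

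*Mmp13*, chr9:7272394-7272513, forward strand: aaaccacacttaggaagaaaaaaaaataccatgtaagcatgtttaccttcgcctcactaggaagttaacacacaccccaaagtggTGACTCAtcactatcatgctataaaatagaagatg

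*Mmp3*, chr9:7445702-7445821, forward strand: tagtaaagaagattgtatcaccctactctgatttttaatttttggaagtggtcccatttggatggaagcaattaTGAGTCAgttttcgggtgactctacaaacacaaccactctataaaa

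*Mmp10*, chr9:7502222-7502341, forward strand: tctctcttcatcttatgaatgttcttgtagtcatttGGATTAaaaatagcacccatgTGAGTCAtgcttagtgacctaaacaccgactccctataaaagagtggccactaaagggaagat

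*Serpinb2*, chr1:107511303-107511422, forward strand: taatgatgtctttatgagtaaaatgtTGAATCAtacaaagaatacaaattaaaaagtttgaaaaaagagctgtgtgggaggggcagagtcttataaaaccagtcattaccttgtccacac

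The AP-1 letters begin 35 bases before the start in *Mmp13*, 46 in *Mmp3*, 63 in *Mmp10* and 94 in *Serpinb2*. RefSeq gives a further, downstream start for *Serpinb2*, and the same letters begin 181 bases before that one. The annotation used for counting begins the gene further upstream, at position 107500892 of chromosome 1, and the bases before that position were not searched. In *Mmp10* the homeodomain letters begin 84 bases before the start. A match of letters is not evidence that a factor was bound there.

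Further genes with a strong rise are known from the cell surface and its signalling. *Itga2*, the integrin alpha-2 chain that binds collagen (chromosome 13, 114835912 to 114932041, on the reverse strand), measured 2.24, 3.43 and 10.3 CPM in control and 18.2, 33.4 and 63.7 CPM with metatherian CRX, a 7.85-fold rise without overlap (log2 fold change 2.97 ± 0.18 SE, adjusted p = 0.0193 by edgeR). *Itga6*, the integrin alpha-6 chain that binds laminin (chromosome 2, 71786885 to 71858427, on the forward strand), measured 45.4, 64.0 and 74.5 CPM in control and 186, 242 and 248 CPM with metatherian CRX (log2 fold change 1.90 ± 0.11 SE, adjusted p = 0.0193 by edgeR). Both were higher in every library than in any control. *Areg*, which encodes amphiregulin, a ligand of the EGF receptor (chromosome 5, 91139615 to 91148432, on the forward strand), measured 0.498, 0.931 and 4.37 CPM against 4.80, 9.21 and 22.5 CPM (log2 fold change 2.94 ± 0.27 SE, adjusted p = 0.0223 by edgeR). *Lgr6*, a receptor of R-spondins, measured 6.30, 9.65 and 20.4 CPM against 42.6, 64.0 and 59.8 CPM (log2 fold change 2.34 ± 0.29 SE, adjusted p = 0.0293 by edgeR), and *Rgs5*, a brake on G protein signalling known from pericytes, 6.67, 4.96 and 21.4 CPM against 26.1, 52.0 and 117 CPM (log2 fold change 2.60 ± 0.30 SE, adjusted p = 0.0277 by edgeR).

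The highest log2 fold changes belonged to genes of low level. *Dynap*, *1700012B09Rik* and *Sh2d1b1* passed the filter on low values through metatherian CRX alone. So did *Blnk*, *Dmp1*, *Prl3d2* and *Prl2c3* below, and *Mmp10*, *Itga2*, *Areg* and *Lgr6* above. The filter therefore favoured a rise in each of these genes. *Dynap* measured 0.402, 0.455 and 3.14 CPM in control and 8.32, 9.51 and 22.9 CPM with metatherian CRX (log2 fold change 3.79 ± 0.39 SE, adjusted p = 0.0261 by edgeR), and *1700012B09Rik* measured 0.0766, 0.152 and 0.523 CPM against 1.94, 2.13 and 3.98 CPM (log2 fold change 3.59 ± 0.39 SE, adjusted p = 0.0263 by edgeR). *Sh2d1b1*, an adaptor of lymphoid receptors, measured 0.345, 0.271 and 1.05 CPM against 2.16, 3.61 and 7.43 CPM (log2 fold change 3.07 ± 0.30 SE, adjusted p = 0.0243 by edgeR). *Blnk*, a B cell adaptor (1.99), *Megf10*, a receptor for engulfment (1.88), and *Dmp1*, a dentin matrix protein (2.04), rose by at least 1 in each pair. *Prl3d2* (2.50) and *Prl2c3* (2.14), members of the placental prolactin family, also rose, but reads of these genes can be split between near-identical copies and their values are uncertain. *Blnk*, *Megf10* and *Prl3d2* overlapped between the groups, because replicate 3 of control lay above replicate 1 of metatherian CRX, and the others did not.

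Genes of growth factor binding and elastic matrix were among those with the strongest fall. *Igfbp2*, a binding protein of insulin-like growth factors (chromosome 1, 72824480 to 72852474, on the forward strand), measured 427, 395 and 60.9 CPM in control and 22.3, 13.0 and 5.97 CPM with metatherian CRX, 18.3-fold lower (log2 fold change −4.19 ± 0.35 SE, adjusted p = 0.0217 by edgeR). Control replicate 3 was the lowest control but still above every metatherian CRX library. *Eln*, elastin (chromosome 5, 134702596 to 134747367, on the reverse strand), measured 161, 106 and 104 CPM against 30.4, 17.4 and 11.7 CPM (log2 fold change −2.72 ± 0.18 SE, adjusted p = 0.0193 by edgeR). *Mfap4*, a microfibril protein that binds elastin (chromosome 11, 61485378 to 61488706, on the forward strand), measured 59.3, 60.4 and 59.6 CPM against 7.53, 5.13 and 11.7 CPM (log2 fold change −2.96 ± 0.26 SE, adjusted p = 0.0223 by edgeR). For both genes every control library lay far above every metatherian CRX library. *Abi3bp*, a matrix protein also called TARSH, measured 358, 274 and 62.0 CPM against 39.6, 21.3 and 6.60 CPM (log2 fold change −3.36 ± 0.15 SE, adjusted p = 0.0193 by edgeR). *Egfl6* (−4.0), *Fndc1* (−3.29), *Olfml1* (−3.41) and *Crispld2* (−2.87), which encode secreted proteins, fell as well. Each of these last genes passed the filter on low values through control alone, so that the filter favoured a fall in them.

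*Col3a1*, the chain of type III collagen (chromosome 1, 45311538 to 45349706, on the forward strand) and among the most abundant transcripts of these cells, measured 9238, 6719 and 3640.4 CPM in control and 2094, 1285 and 754 CPM with metatherian CRX (log2 fold change −2.27 ± 0.11 SE, adjusted p = 0.0193 by edgeR). Its fall was close to even over the pairs, at −2.14, −2.39 and −2.27 on the log2 scale. Genes of smooth muscle, 3 in this set, fell beside it. *Cnn1*, calponin (chromosome 9, 22099221 to 22109221, on the forward strand), measured 53.8, 64.2 and 77.5 CPM against 10.5, 6.97 and 11.9 CPM (log2 fold change −2.76 ± 0.20 SE, adjusted p = 0.0193 by edgeR), and *Actg2*, gamma smooth muscle actin (chromosome 6, 83512909 to 83536251, on the reverse strand), 22.2, 20.2 and 49.4 CPM against 3.84, 2.46 and 7.82 CPM (log2 fold change −2.74 ± 0.16 SE, adjusted p = 0.0193 by edgeR). *Lmod1*, a nucleator of actin filaments in smooth muscle, measured 30.9, 36.5 and 63.8 CPM against 4.43, 3.26 and 14.8 CPM (log2 fold change −2.79 ± 0.30 SE, adjusted p = 0.0263 by edgeR). *Nkd1*, a feedback inhibitor of Wnt signalling, measured 21.3, 21.8 and 11.7 CPM against 3.57, 3.35 and 1.32 CPM (log2 fold change −2.80 ± 0.18 SE, adjusted p = 0.0193 by edgeR). *Slc1a6*, a glutamate transporter (−2.98), *Cxcl15* (−2.93) and *Cdsn* (−2.17) complete the set, and the last 2 have exons on more than 1 sequence of the annotation used for counting, so that their values are uncertain. *Lmod1*, *Nkd1*, *Slc1a6* and *Cdsn* passed the filter on low values through control alone, so that the filter favoured a fall in them.

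**Figure D2:**
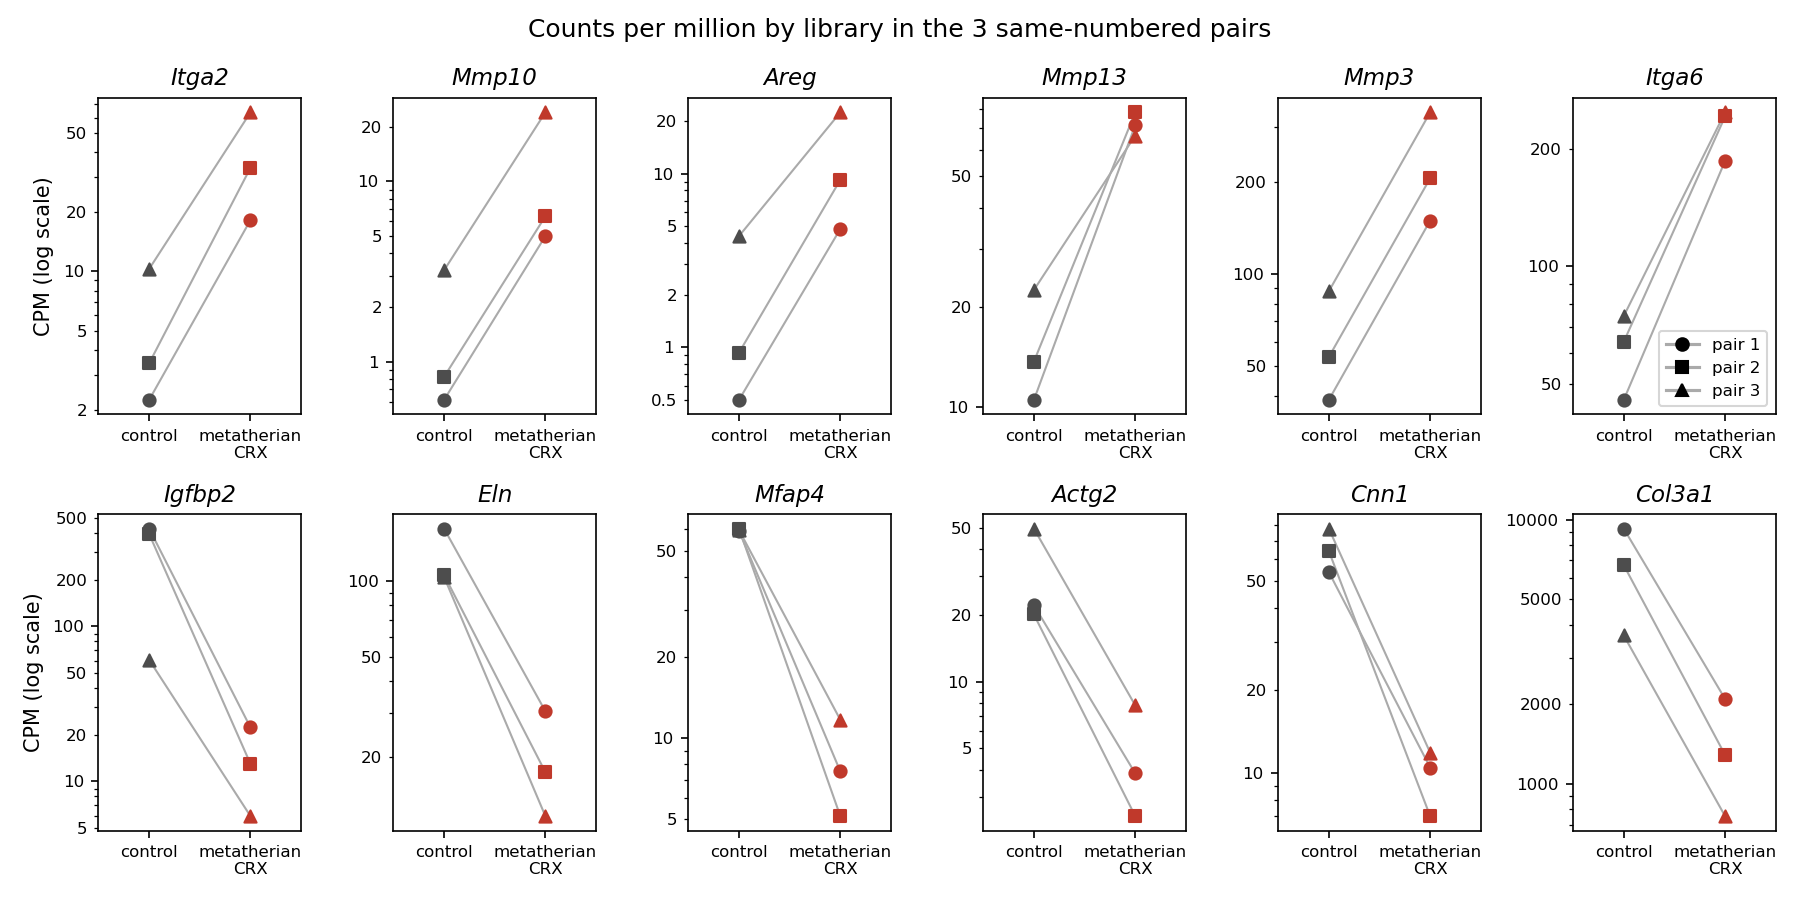
CPM on a log axis, with its own range for each gene, in the 3 control libraries (grey) and the 3 metatherian CRX libraries (red) for 6 genes that rose (top) and 6 that fell (bottom), with lines joining libraries of the same number. Every line climbs in the top row and drops in the bottom row, and the groups do not overlap for any of the 12 genes.

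Listed genes of matrix glycoproteins and proteoglycans fell and none rose. Of 39 kept members of the list of matrix glycoproteins and proteoglycans, 15 fell and 0 rose, 25 were lower and 2 higher in all 3 pairs, and the median log2 fold change was −0.83, against −0.00304 over all genes tested. The pair medians were −0.75, −0.83 and −0.91. Beside the genes above, the called members included the microfibril genes *Fbn2* (−1.70), *Fbn1* (−0.72), *Fbln5* (−1.56) and *Mfap5* (−1.60), the small leucine-rich proteoglycans *Aspn* (−1.98) and *Ogn* (−1.70), and the basement membrane genes *Nid2* (−1.73) and *Lama4* (−1.42). *Sparc*, the collagen-binding protein osteonectin, fell from 9933, 9017 and 5712 to 6292, 5074 and 3267 CPM (log2 fold change −0.76 ± 0.10 SE, adjusted p = 0.0353 by edgeR). *Thbs1*, thrombospondin-1, the most abundant member, had a mean of 25289.9 CPM in control and 19871 CPM with metatherian CRX and was not called (adjusted p = 0.235 by edgeR). *Postn*, periostin, measured 4165, 3393 and 1879.7 CPM against 238, 176 and 809 CPM and missed the threshold (log2 fold change −3.28, adjusted p = 0.0929 by edgeR). Without 1 library or pair the list's median lay between −1.11 and −0.796. The wider Reactome sets held called genes of both directions, and *Dmp1*, which is not in the list, rose. Extracellular matrix organization had 13 genes called higher and 19 lower of 159, ECM proteoglycans 4 and 5 of 45, elastic fibre formation 3 and 10 of 34, and laminin interactions 3 and 3 of 23. The median of the first of these was above 0 in pair 1 (0.054) and below 0 in pair 3 (−0.52).

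Collagen chains moved less evenly. Of 19 kept chains, 3 fell (*Col3a1*, *Col12a1* and *Col8a1*), 0 rose, and 12 were lower in all 3 pairs. Called chains made up 15.8%, against 3.97% of all genes tested, of which 24.6% were lower in all 3 pairs. The median was −0.70, with pair medians of −0.25, −0.32 and −1.78, the lowest being that of pair 3. *Col1a1*, the main chain of type I collagen, measured 9989.6, 9113 and 7643 CPM in control and 5242, 4659.9 and 1048 CPM with metatherian CRX, and its drop was far larger in pair 3 than in the others (−0.93, −0.97 and −2.87 on the log2 scale, adjusted p = 0.141 by edgeR). The summed level of all listed chains ran from 33491 to 40504 CPM in control and from 9191 to 23242 CPM with metatherian CRX. Genes that process collagen gave 4 falls and 0 rises among 19 (21.1% called, against 3.97% of all genes tested). The falls were those of *Lox* (lysyl oxidase, −1.33), *Loxl2* (−1.27), *Serpinh1* (the collagen chaperone HSP47, −1.04) and *Adamts2* (the procollagen N-proteinase, −1.39). *Lox*, the enzyme that crosslinks collagen and elastin, went from 13496, 9068 and 4602 to 6095, 3502 and 1668 CPM (log2 fold change −1.33 ± 0.12 SE, adjusted p = 0.0223 by edgeR).

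Genes of matrix proteinases changed in both directions. Of 23 kept matrix proteinases and inhibitors, 4 rose, *Mmp3*, *Mmp10*, *Mmp13* and *Serpinb2*, and 4 fell, *Mmp14* (the membrane-bound collagenase, −0.69), *Adamts1* (−1.01), *Adamts12* (−1.31) and *Plat* (tissue plasminogen activator, −0.63). Members higher in all pairs numbered 8 and members lower 11, and the median was −0.32. The gelatinase *Mmp2*, at 965 CPM in control and 707 CPM with metatherian CRX, was lower in all 3 pairs and was not called (adjusted p = 0.0945 by edgeR). The inhibitor *Timp1* was higher in all 3 pairs and was not called either (log2 fold change 0.46, adjusted p = 0.0840 by edgeR).

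Genes of the contractile apparatus of smooth muscle and myofibroblasts fell and none rose. Of 22 kept members, 9 fell and 0 rose, 20 were lower and 0 higher in all 3 pairs, and 17 did not overlap between the groups. Over all genes tested, 2.2% fell, 24.6% were lower in all 3 pairs and 12% were lower without overlap. The median was −0.76 (pair medians −0.45, −0.61 and −1.20), and −0.996 to −0.518 without 1 library or pair. *Acta2*, alpha smooth muscle actin and the usual mark of myofibroblasts, measured 1373, 1657 and 2709.9 CPM in control and 443, 284 and 628 CPM with metatherian CRX, 4.27-fold lower (log2 fold change −2.10 ± 0.20 SE, adjusted p = 0.0236 by edgeR). *Tagln* (transgelin) went from 913, 973 and 1295 to 414, 256 and 464 CPM (log2 fold change −1.52 ± 0.18 SE, adjusted p = 0.0280 by edgeR) and *Myl9*, the regulatory light chain of smooth muscle myosin, from 223, 246 and 315 to 103, 72.8 and 76.5 CPM (log2 fold change −1.64 ± 0.20 SE, adjusted p = 0.0293 by edgeR). *Csrp1* (−0.95) and *Itga8* (−1.0) were also among the 9, as were *Cnn1*, *Actg2* and *Lmod1*. *Srf*, the factor that binds CArG boxes of such genes, and its coactivator *Mkl1* were lower in all 3 pairs without being called (log2 fold changes −0.59 and −0.77). The Reactome set of smooth muscle contraction, which shares members with this list, had 6 of 21 genes called lower, with pair medians of −0.29, −0.38 and −0.57.

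In a list of Wnt feedback inhibitors, agonists, receptors and secreted binders, genes fell and none rose. Of 22 kept members, 9 fell and 0 rose, 16 were lower and 1 higher in all 3 pairs, 4 passed the filter through control alone and 1 through metatherian CRX alone, and the median was −0.79 (pair medians −0.65, −0.66 and −1.04), or −0.484 without a filter on low values. *Lgr6*, the R-spondin receptor that rose, is not in the list. *Axin2*, a widely used Wnt target and feedback inhibitor, measured 14.8, 17.8 and 9.16 CPM in control and 6.74, 7.09 and 3.93 CPM with metatherian CRX (log2 fold change −1.23 ± 0.14 SE, adjusted p = 0.0274 by edgeR). *Lgr5*, a Wnt target and R-spondin receptor, measured 124, 112 and 92.8 CPM against 30.8, 17.4 and 16.8 CPM (log2 fold change −2.39 ± 0.17 SE, adjusted p = 0.0193 by edgeR). Both genes had all controls above all metatherian CRX libraries. The R-spondin ligands *Rspo2* (−1.24) and *Rspo3* (−0.83), the secreted Wnt binders *Sfrp1* (−1.71) and *Sfrp4* (−1.55), the receptor *Fzd1* (−0.68) and *Wisp2* (−2.09) fell too. The Reactome set of Wnt signalling, which is wider, did not share this direction. Of its 171 genes 2 were called higher and 7 lower, 50 were higher and 39 lower in all 3 pairs, and its pair medians were 0.014, 0.028 and 0.085. *Ctnnb1*, beta-catenin, was the 1 listed member higher in all pairs, by 0.22 (adjusted p = 0.303 by edgeR).

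**Figure D3:**
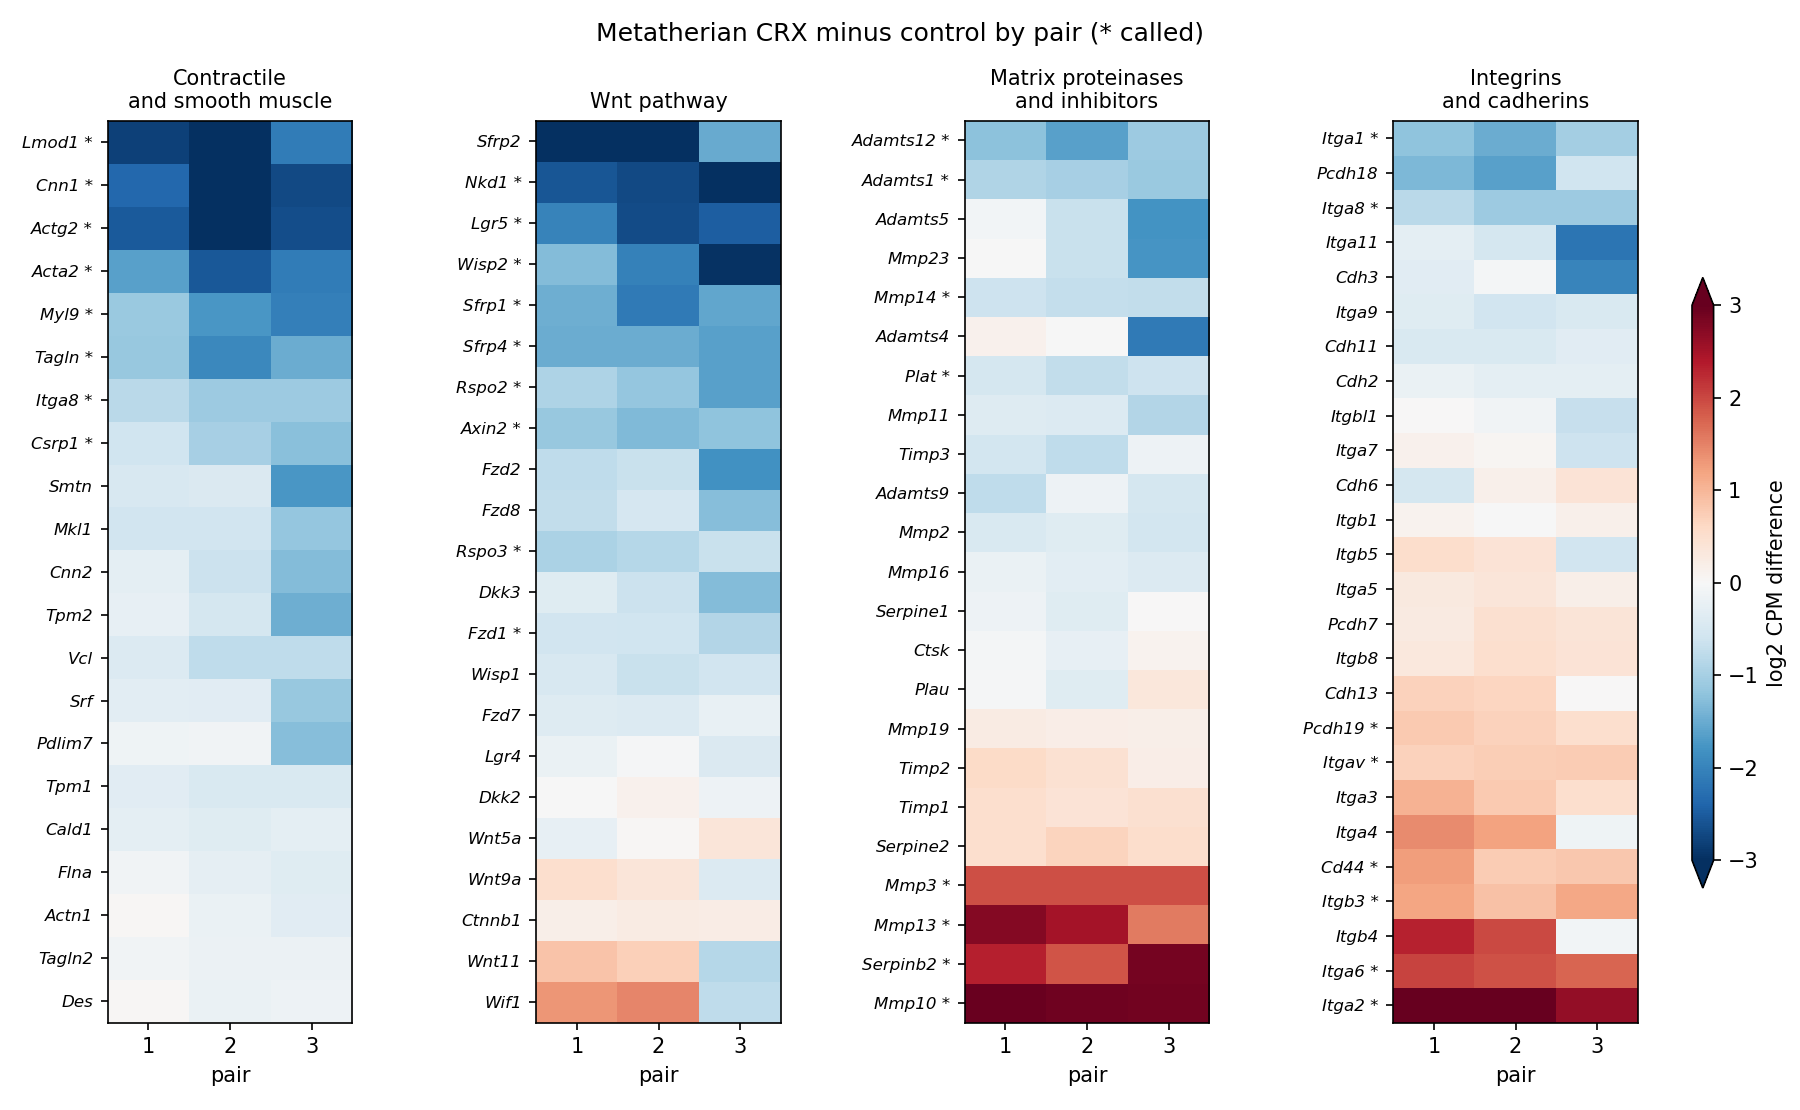
Log2 CPM difference of metatherian CRX minus control in pairs 1, 2 and 3 (columns) for the kept members of 4 gene lists (rows, ordered by log2 fold change, called genes starred, 1 contractile gene not drawn), with blue for lower and red for higher and colours saturated at 3. The contractile and Wnt columns are mostly blue in every pair, 4 proteinase genes and 6 integrin and cadherin genes are called higher, and a few genes such as *Itgb4* and *Wif1* are red in pairs 1 and 2 alone.

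In the TGF-beta and BMP pathway, which drives myofibroblasts and patterns mesenchyme, 6 of 29 kept members fell and 1 rose. The called lower genes were the ligands *Bmp4* (−1.60), *Tgfb2* (−1.04) and *Gdf10* (−1.20) and the BMP targets *Id3* (−1.11), *Id4* (−1.42) and *Msx1* (−1.31). *Bmp4* measured 216, 214 and 43.4 CPM in control and 82.2, 60.2 and 14.5 CPM with metatherian CRX (log2 fold change −1.60 ± 0.13 SE, adjusted p = 0.0193 by edgeR). *Bmp2*, which acts through the same receptors, went the other way, from 2.43, 3.78 and 12.4 to 12.3, 20.4 and 37.9 CPM (log2 fold change 2.12 ± 0.21 SE, adjusted p = 0.0261 by edgeR). Both ligands moved the same way in all 3 pairs, but for both the groups overlapped, since control replicate 3 lay nearer to the metatherian CRX libraries than replicates 1 and 2 did. The list's median was −0.29. Of 21 kept Hippo pathway genes and YAP targets, *Amotl2* was the 1 called (4.76%, against 3.97% of all genes tested) and fell (−1.09), and 13 were lower and 5 higher in all pairs. *Cyr61*, a common YAP target, was lower in all pairs without being called (−0.64, adjusted p = 0.0868 by edgeR).

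Growth factor genes changed in both directions. Of 33 kept ligands, receptors and binding proteins, 4 rose and 6 fell (30.3% called, against 3.97% of all genes tested), and the median was −0.0010. *Areg*, *Fgf2* (1.14) and *Bdnf* (0.87) were among the 4. *Bdnf*, a neurotrophin, measured 129, 146 and 105 CPM in control and 249.8, 257 and 190.0 CPM with metatherian CRX (log2 fold change 0.87 ± 0.10 SE, adjusted p = 0.0266 by edgeR). *Igf1*, the insulin-like growth factor that IGFBP2 binds, measured 72.2, 57.7 and 36.3 CPM against 20.1, 16.2 and 12.3 CPM (log2 fold change −1.75 ± 0.12 SE, adjusted p = 0.0193 by edgeR), and *Ptn*, pleiotrophin, 563, 569 and 1133 CPM against 149.9, 113 and 294 CPM (log2 fold change −2.06 ± 0.13 SE, adjusted p = 0.0193 by edgeR). The related *Mdk*, midkine (−1.92), and the receptors *Fgfr2* (−1.40) and *Pdgfrb* (−0.88) fell as well, whereas *Pdgfra* was higher in all pairs without being called (0.59, adjusted p = 0.0527 by edgeR). *Hbegf*, a further ligand of the EGF receptor, measured 116, 194 and 93.7 CPM against 210.5, 267 and 233 CPM and was not called (log2 fold change 0.88 ± 0.18 SE, adjusted p = 0.0812 by edgeR), though it passed the threshold in 11 of 19 alternative settings.

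Feedback regulators of the ERK kinase pathway, which these ligands activate, shifted in both directions. Of 34 kept immediate early and feedback genes, *Dusp6*, the phosphatase of ERK (1.27), *Spred2* (0.79) and *Dusp10* (0.78) rose, and *Spry1* (−1.60) and *Gadd45b* (−1.29) fell. *Dusp6* measured 19.2, 41.3 and 57.7 CPM in control and 58.3, 86.2 and 129 CPM with metatherian CRX (log2 fold change 1.27 ± 0.14 SE, adjusted p = 0.0274 by edgeR). Genes higher in all 3 pairs numbered 14 and genes lower 12. The AP-1 genes themselves were not called. *Fos* (−0.34), *Jun* (−0.26), *Junb* (−1.22) and *Fosl2* (−0.35) were lower in all 3 pairs, and *Fosl1* (−0.19) and *Jund* (−0.88) did not keep 1 direction.

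Integrins changed chain by chain. Of 26 kept integrins, cadherins and related adhesion genes, 6 rose and 2 fell, and the median was 0.20 (pair medians 0.28, 0.40 and −0.037), or 0.167 to 0.356 without 1 library or pair. Of the 26, 3 passed the filter on low values through metatherian CRX alone and 0 through control alone. These values are therefore partly set by the filter. *Itgb3* (1.08) and *Itgav* (0.73), which pair to form the vitronectin receptor, rose together, as did *Cd44*, the hyaluronan receptor (0.94), and *Pcdh19* (0.65) beside *Itga2* and *Itga6*. *Itgb3* measured 13.8, 21.4 and 52.5 CPM in control and 31.2, 39.7 and 118 CPM with metatherian CRX (log2 fold change 1.08 ± 0.12 SE, adjusted p = 0.0263 by edgeR). The other collagen-binding chain that was called, *Itga1*, fell from 70.0, 59.8 and 35.7 to 30.5, 21.4 and 17.6 CPM (log2 fold change −1.23 ± 0.13 SE, adjusted p = 0.0263 by edgeR), so that *Itga1* and *Itga2* moved in opposite directions. *Spp1*, osteopontin, a ligand of the integrin of *Itgav* and *Itgb3* and a member of the bone marker list, measured 1011, 1548 and 9189 CPM against 13318, 17354 and 25063 CPM. Its groups did not overlap, control replicate 3 was far above the other controls, and it was not called (log2 fold change 2.91, adjusted p = 0.0580 by edgeR).

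Axon guidance genes, which many mesenchymal cells also use for contact and migration, gave 6 rises and 3 falls among 36. The semaphorins *Sema3a* (0.86), *Sema6d* (1.10) and *Sema7a* (0.96), the semaphorin coreceptor *Plxna2* (0.76) and the neurite protein *Nrn1* (1.28) rose. Ephrin receptors went both ways, with *Epha2* higher (1.06) and *Epha3* (−1.91), *Ephb2* (−1.02) and *Ephb3* (−1.29) lower. *Epha3* fell from 85.8, 64.0 and 50.3 to 23.1, 13.4 and 17.0 CPM (log2 fold change −1.91 ± 0.17 SE, adjusted p = 0.0223 by edgeR), and *Epha2* rose from 103, 179 and 119 to 271, 367 and 201 CPM (log2 fold change 1.06 ± 0.15 SE, adjusted p = 0.0390 by edgeR). The list's median was 0.018, but its sign turned whenever 1 library or pair was left out, to between −0.0554 and −0.0203.

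Among inflammatory genes, 3 chemokines and 2 receptors of the interleukin-6 family fell. Of 28 kept NF-kB targets and inflammatory genes, *Cxcl1* (−1.62), *Cxcl5* (−1.66) and *Cxcl12* (−1.21) fell, and *Tslp*, an epithelial cytokine, rose (1.85). *Cxcl12*, the ligand of CXCR4, measured 1336, 1089 and 649 CPM in control and 497, 423 and 362 CPM with metatherian CRX (log2 fold change −1.21 ± 0.16 SE, adjusted p = 0.0309 by edgeR). *Tslp* measured 19.1, 23.4 and 5.74 CPM against 84.5, 99.4 and 14.0 CPM (log2 fold change 1.85 ± 0.21 SE, adjusted p = 0.0274 by edgeR). Of 23 kept genes of the IL-6 family and STAT3, 3 fell, the shared receptor *Il6st* (−1.19), the oncostatin M receptor *Osmr* (−0.69) and the feedback inhibitor *Socs3* (−1.21), and *Socs6* rose (1.08). The median of that list was −0.65, with 14 lower and 4 higher in all pairs, and 17.4% were called against 3.97% of all genes tested. Of its 23 kept genes, 4 passed the filter on low values through control alone and 0 through metatherian CRX alone, so that the filter favours a fall. *Ptgs2*, cyclooxygenase-2, measured 206, 328 and 248 CPM against 437, 394 and 497 CPM and was not called (log2 fold change 0.78 ± 0.19 SE, adjusted p = 0.110 by edgeR), and it passed the threshold in 7 of 19 alternative settings.

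Interferon-induced genes separated pair 3 from the others. Of 28 kept members 0 were called by edgeR, 5 had an unadjusted p under 0.05, 4 were called by DESeq2 and 0 by limma voom, and 1 was higher and 1 lower in all pairs. The pair medians were 0.96, 1.06 and −0.72, so that pairs 1 and 2 stood well above 0 and pair 3 below. Cholesterol synthesis genes had pair medians of 0.54, 0.27 and −0.62 over 21 kept members, with 0 called by edgeR, DESeq2 or limma voom and 0 at an unadjusted p under 0.05 by edgeR.

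Most genes of short lists of mitosis and DNA replication were lower in all 3 pairs, and edgeR called few of them. Of these lists, 10 of 33 and 5 of 33 kept genes passed the filter on low values through control alone. Of 33 kept genes of mitosis and the kinetochore, 32 were lower in all 3 pairs, 26 had an unadjusted p under 0.05 and 0 were called by edgeR, whereas DESeq2 called 21 and limma voom 2. The median was −0.70 (pair medians −0.34, −0.80 and −0.81). *Mki67*, the proliferation antigen, measured 37.1, 46.8 and 64.5 CPM in control and 22.4, 18.7 and 40.2 CPM with metatherian CRX (log2 fold change −0.91 ± 0.17 SE, adjusted p = 0.0596 by edgeR). Of 33 kept DNA replication genes, 23 were lower in all pairs, 0 higher, and 1 was called by edgeR, *Lig1*, DNA ligase 1 (log2 fold change −0.79 ± 0.13 SE, adjusted p = 0.0493 by edgeR), whereas DESeq2 called 15 and limma voom 1. Their median was −0.46. Among 15 cyclins and inhibitors of the G1 phase, 7 were lower in all pairs and 4 higher, *Cdkn1b*, which encodes p27, fell (−0.80), and *Ccnd1*, cyclin D1, was higher in all pairs without being called (0.51, adjusted p = 0.0715 by edgeR).

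Reactome sets of the cell cycle differed among themselves. DNA strand elongation had 19 of 29 genes lower and 0 higher in all 3 pairs, activation of the pre-replicative complex 14 and 0 of 23, Mitotic Prometaphase 32 and 10 of 78, and resolution of sister chromatid cohesion 27 and 8 of 70, each with a median below 0 in every pair. S Phase had 33 genes lower and 18 higher of 106. M Phase had 52 of 191 genes lower and 44 higher in all 3 pairs, Mitotic Anaphase 35 and 30 of 134, and Cell Cycle Checkpoints 27 and 25 of 109, against the 24.6% lower and 22.7% higher of all genes tested.

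Targets of p53 split evenly, with 8 of 21 higher and 7 lower in all pairs. *Perp*, which is also a desmosome gene, went from 101, 110.5 and 144 to 222, 241 and 308 CPM (log2 fold change 1.12 ± 0.09 SE, adjusted p = 0.0217 by edgeR), and *Pmaip1* (NOXA) rose (0.69), and no target fell. All 5 kept epithelial markers were higher in all 3 pairs, and 3 rose, *Krt18* (1.79), *Dsp* (desmoplakin, 1.23) and *Perp*, but only 5 of the 18 listed passed the filter, 2 of them through metatherian CRX alone, so that the count is partly set by the filter. The summed level of the 18 epithelial markers was 135 to 182 CPM in control and 304 to 361 CPM with metatherian CRX. *Krt18* measured 0.268, 0.357 and 2.97 CPM against 1.02, 1.52 and 8.31 CPM and *Dsp* 16.4, 16.7 and 12.5 CPM against 45.2, 44.2 and 22.1 CPM. *Krt18* overlapped between the groups, because control replicate 3 lay above metatherian CRX replicates 1 and 2.

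Among the lists of stress, metabolism and organelles, the share of called genes was 12.1% for NRF2 and glutathione and 11.5% for ATF4 targets, against 3.97% over all genes tested. It was 7.69% for lipoproteins and cholesterol export, 5.88% for heat shock proteins, 5.71% for the lysosome, 4.17% for fatty acid synthesis and 3.7% for glycolysis and hypoxia, each from 1 or 2 genes. Of 26 kept ATF4 targets, 17 were lower in all pairs and 0 higher, and *Trib3* (−1.03), *Slc7a5*, an amino acid transporter (−0.69), and *Mthfd2*, a folate enzyme (−0.68), fell. Of 33 NRF2 targets and glutathione genes, *Nqo1* (1.07), *Gclc* (0.70) and *Ggct* (1.62) rose and *Gstm2* fell (−1.27). *Nqo1*, the quinone reductase, measured 69.9, 79.3 and 49.8 CPM in control and 159, 139 and 114 CPM with metatherian CRX (log2 fold change 1.07 ± 0.12 SE, adjusted p = 0.0276 by edgeR). The lysosomal proteinases *Ctsl* (0.76) and *Ctsh* (0.75) rose among 35 lysosome genes. *Apoe*, the lipid carrier that macrophages also express, fell from 16.0, 15.9 and 29.5 to 3.53, 4.66 and 7.0 CPM (log2 fold change −2.01 ± 0.15 SE, adjusted p = 0.0193 by edgeR). Markers of macrophages and leukocytes were low but moved with it. Of 28 listed, 27 were measured, 5 were kept and 1 had 0 counts in all 6 libraries. Their sum was 31.4 to 80.9 CPM in control and 12.8 to 25.7 CPM with metatherian CRX, and their part in the value of *Apoe* was not tested. The lists of ribosomal proteins (37 kept), oxidative phosphorylation (39), the proteasome (31), ER chaperones (21), imprinted genes (16) and complement (7) had 0 called genes by edgeR. At an unadjusted p under 0.05 these lists held 0, 0, 0, 7, 6 and 4 genes, and DESeq2 called 0, 0, 0, 1, 4 and 3 of them and limma voom 0 in each.

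Transcription factors of mesenchyme changed in a few members. Of 38 kept, *Osr1* (−1.53), *Snai1* (−1.38), *Alx4* (−1.23) and *Ebf1* (−0.89) fell and *Dach1* rose (0.90), or 13.2% called against 3.97% of all genes tested. *Osr1*, a factor of fibroadipogenic progenitors, measured 78.6, 84.1 and 35.8 CPM in control and 28.3, 29.2 and 11.9 CPM with metatherian CRX (log2 fold change −1.53 ± 0.10 SE, adjusted p = 0.0193 by edgeR). Among 22 kept Hox genes 1 was called (4.55%), 10 were lower and 3 higher in all pairs, none was lower without overlap, and 6 passed the filter through control alone. *Hoxb8* fell (log2 fold change −1.19 ± 0.18 SE, adjusted p = 0.0432 by edgeR), and the other *Hoxb* genes kept by the filter, *Hoxb2*, *Hoxb4*, *Hoxb6*, *Hoxb7* and *Hoxb9*, were lower in all 3 pairs without being called (log2 fold changes −1.36, −1.19, −1.17, −0.52 and −0.73). The clock genes *Arntl* (BMAL1, 0.86) and *Dbp* (−0.94), of which the second is a target of the first, moved up and down. *Smarca1*, the ISWI remodeller SNF2L, fell from 21.3, 17.0 and 14.4 to 12.4, 9.22 and 8.58 CPM (log2 fold change −0.80 ± 0.13 SE, adjusted p = 0.0459 by edgeR). It was the 1 called gene of 28 chromatin remodellers (3.57%, against 3.97% of all genes tested) and passed the threshold in 10 of 19 alternative settings.

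Genes of photoreceptors, among them the known targets of CRX, mostly lay below the filter on low values. Of 37 listed, 2 passed it, *Gnb1*, which most cells express, and *Rom1*, 0 were called by edgeR, DESeq2 or limma voom, 0 had an unadjusted p under 0.05 by edgeR, and 3 had 0 counts in all 6 libraries. The 2 kept had a median of 0.16, which turned to −0.0462 with filterByExpr alone and −0.0662 without a filter, where more of the listed genes enter. Of 44 genes of the preimplantation embryo and trophoblast, 6 were kept and *Krt18* was the 1 called, and 11 had 0 counts in all 6 libraries. With no count in a library, up to 3 counts remain possible, which is 0.0317 to 0.0554 CPM at these depths, for counting error only.

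**Figure D4:**
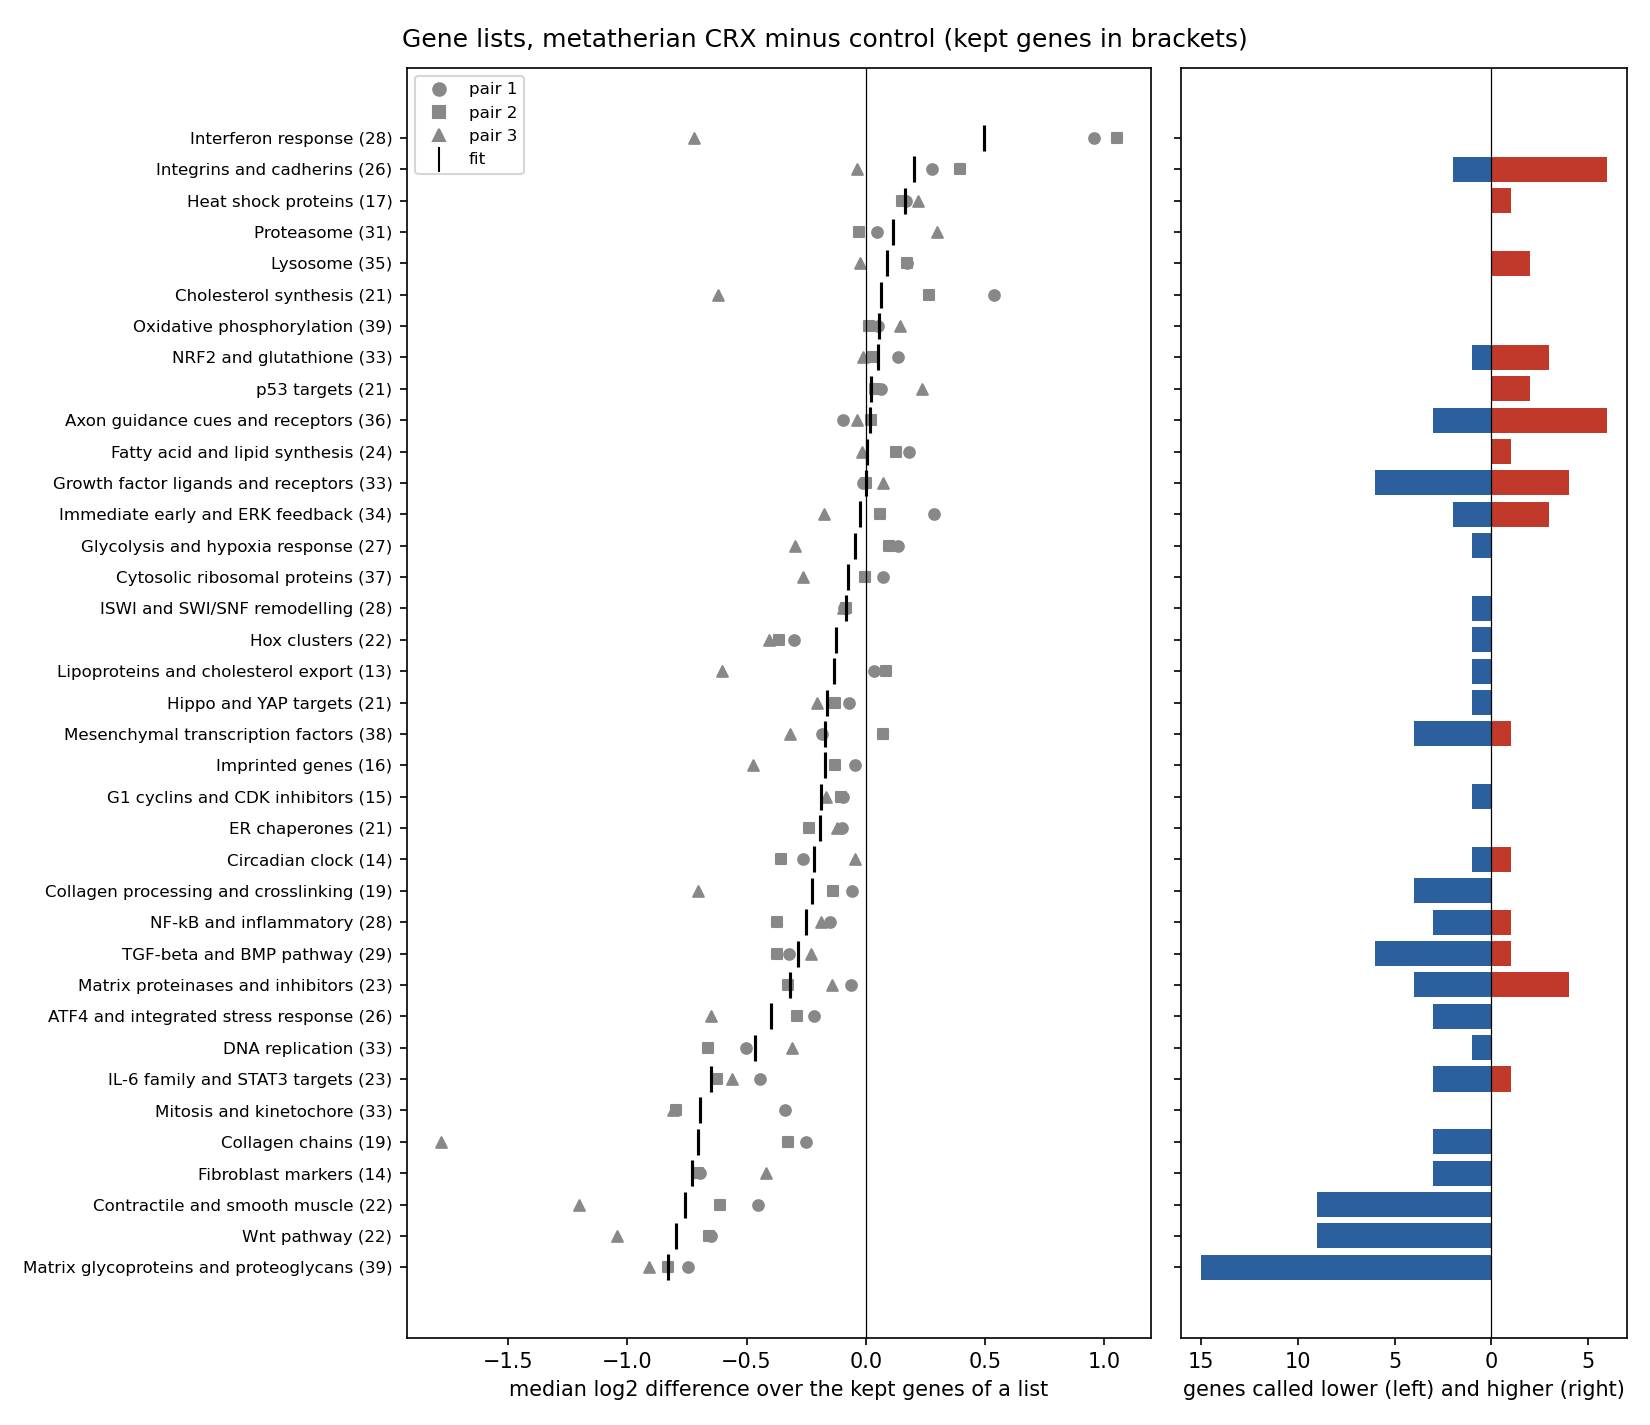
Median log2 difference of the kept genes of each list with at least 10 kept genes, in pair 1 (circle), pair 2 (square), pair 3 (triangle) and in the fit of all 6 libraries (bar), beside the number of genes called lower (blue, left) and higher (red, right). Matrix glycoproteins have the lowest fit median (−0.83) and the most called genes (15 lower), and interferon genes have pairs 1 and 2 near 1 but pair 3 at −0.72.

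Fibroblast markers were present in both groups. All 14 fibroblast markers were kept, with a summed level of 26134 to 35247 CPM in control and 10355 to 20494 CPM with metatherian CRX, and *Col3a1*, *Thy1* (−1.12) and *Pdgfrb* fell. *Prrx1* and *Pdgfra* were not called. Among the macrophage and leukocyte markers *Siglecg* was the 1 called (−1.60), 4 of the 5 kept were lower in all 3 pairs without overlap, and their median was −2.29 (pair medians −5.12, −2.13 and −0.43). Of these 5, 3 passed the filter through control alone, so that the filter favours a fall here. Of 3 kept endothelial markers *Flt1* fell (−0.87), and of 6 neural and glial markers *Nes*, nestin, rose (1.11) and *Map2* fell (−1.14). Skeletal muscle markers had 2 kept and 0 called genes by edgeR, and 1 of them, *Acta1*, had an unadjusted p under 0.05 and was called by DESeq2 and limma voom. Cartilage, bone and fat markers had 8 kept and 0 called by edgeR, 2 had an unadjusted p under 0.05, and DESeq2 called 2 and limma voom 1.

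Reactome pathways were described in the same way. Of 751 sets with 10 to 200 kept genes, 224 had a median above 0 and 93 below 0 in all 3 pairs. The sets lowest in their weakest pair were those of lagging strand synthesis at telomeres (pair medians −0.40, −0.59 and −0.39 over 11 genes), processive synthesis on the lagging strand (15 genes) and flap removal (13 genes), which share members. Highest were the synthesis of tetrahydrobiopterin (pair medians 0.24, 0.29 and 0.24 over 10 genes), signal amplification (0.20, 0.23 and 0.31 over 12) and calcium mobilization by the IgE receptor (19 genes). Integrin alphaIIb beta3 signalling had 3 of 19 genes called higher, and activation of matrix metalloproteinases 4 called higher and 1 lower of 12.

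Promoters were searched for 3 sets of letters in RefSeq windows of 250 bases before to 50 after each start site on GRCm38.p6, on both strands. Of 10029 genes 8074 matched, with 10315 windows, and some genes have several overlapping windows. The homeodomain letters TAATCC stood in 5.31% of all windows, in 7 of 205 windows of called higher genes (3.41%) and in 12 of 208 of called lower genes (5.77%). For genes lower by at least 1 in each pair the share was 8.93% (10 of 112), and for those higher 4.84% (3 of 62). The AP-1 letters TGANTCA were searched with any base at N, so that windows with A or T there are counted too. Shares for C or G alone were not computed. These letters stood in 5.05% of all windows, in 30 of 205 windows of called higher genes (14.6%) and in 12 of 208 of called lower genes (5.77%). Among genes higher by at least 1 in each pair they stood in 15 of 62 windows (24.2%), and among those lower in 4 of 112 (3.57%). The CArG box of serum response factor was found in 1.27% of all windows, in 0 of the called higher and in 4 of the called lower genes' windows (1.92%), *Myl9* among them. The AP-1 and CArG letters were searched after the called genes had been seen, and no test was made of these shares.

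**Figure D5:**
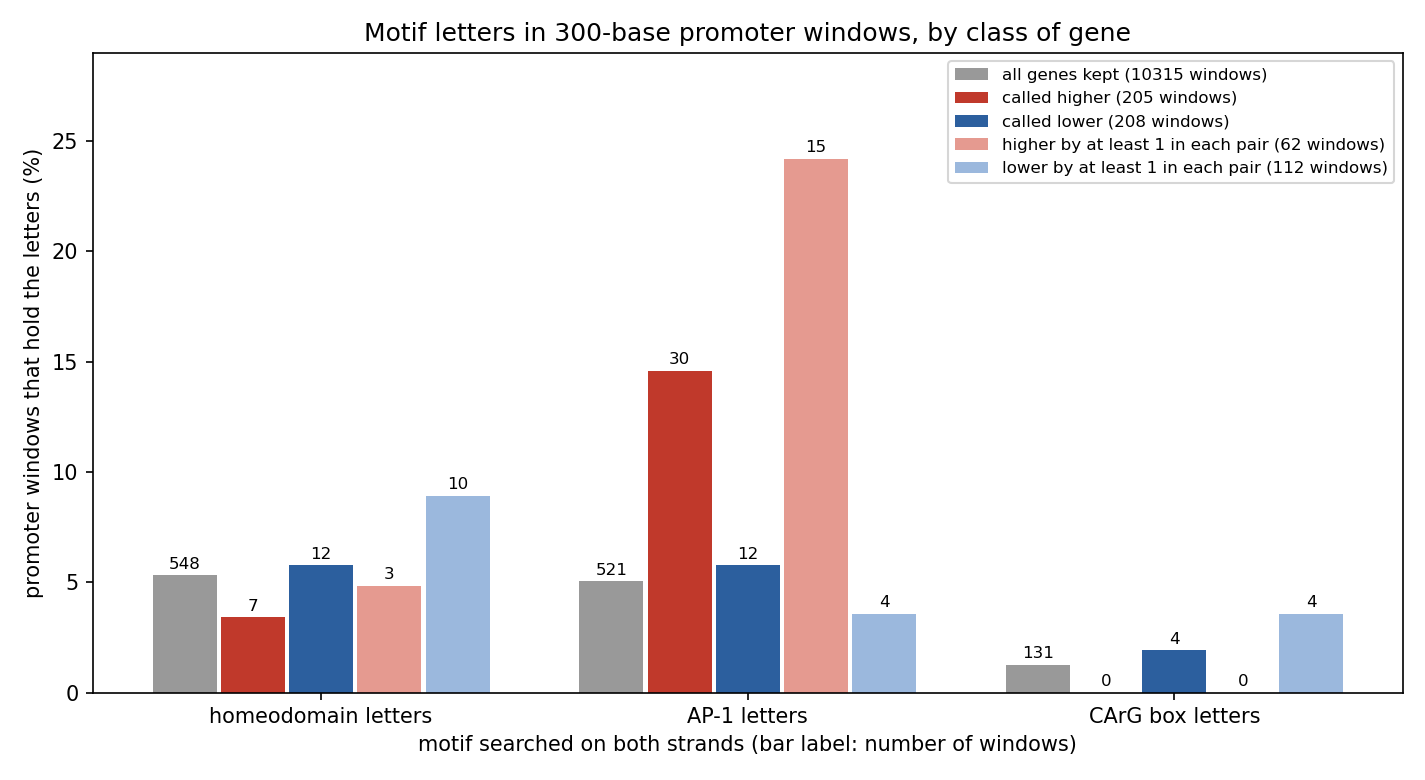
Share of 300-base promoter windows that hold each set of letters on either strand, in percent, for all kept genes (grey), called higher (red), called lower (blue) and genes higher or lower by at least 1 on the log2 scale in each pair (light red and light blue), with the number of windows above each bar. AP-1 letters (TGANTCA, with any base at N) reach 14.6% and 24.2% in the higher classes against 5.05% of all windows, while the homeodomain letters stay between 3.41% and 8.93%.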

How the data were processed

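RNA-seq of MEFs was taken from 3 control and 3 metatherian CRX libraries. Reads were aligned to mm10 with STAR v2.4.0, and raw counts per gene from featureCounts v1.4.6 were deposited by the authors, not normalized and not pooled. The annotation release and strand option are not given in the sources used here, so that overlapping and antisense genes cannot be told apart. Columns without a sample numbered 0.

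The analysis used R 4.3.3 with edgeR 4.0.16. The table listed 22068 genes, 4047 of them with 0 counts in the 6 libraries. A gene was kept if it passed filterByExpr (14352 genes) and its mean FPKM, computed from counts and exon length, exceeded 2 in control or metatherian CRX (10029 genes). Calls came from the quasi-likelihood F test on TMM-scaled counts, blocked by replicate number and adjusted by Benjamini-Hochberg. A prior count of 2 was used for the log2 differences of pairs. SE was obtained from the fold change and its F value. The paper states that samples were made in pairs, without naming them. Deviations of same-numbered libraries from their group means correlated at 0.49, 0.31 and 0.27, so the numbers were used as pairs. Replicates differed by far more than sampling noise (chi-square per degree of freedom 75.5 to 470) and were counted separately. Depth was 54145701 to 94699657 counts per library, and floors cover counting error only.

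The libraries, gene lists and tests were chosen with earlier results of these data known. Genes named are the 10 largest called log2 fold changes in each direction, the 15 in each direction whose smallest pair difference was largest, members of the 46 lists, and *Hbegf*, *Ptgs2* and *Smarca1*. The rule took up to 4 members per list by pair difference and 2 by level. Further called members, and members named for their role, were chosen after their values had been seen, and some called members are not reported here. For Reactome sets, 9993 of 10029 genes were matched by Entrez identifier. Alternatives were no block, other scalings, filters and thresholds, DESeq2 1.42.0, limma 3.58.1 (voom), all 9 libraries, thinned counts and each library or pair left out.

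On simulated data for this comparison with 10029 genes, the test found 169 of 200 genes shifted by 1 on the log2 scale with 15 false calls, and 199 of 200 shifted by 2 with 18. On the same data DESeq2 found 187 and 197 with 42 and 46 false calls, and limma voom 172 and 199 with 16 and 20. Without the block, edgeR found 0 and 185 with 0 and 1 false calls. The simulated counts were drawn from the same block model that the test fits, so that pairs that disagree were not simulated.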

Additional observations from a re-analysis of the deposited data

How the results depend on the processing

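The direction of all 398 called genes held in every alternative in which they were tested, but the number called did not. Without the replicate block 30 genes were called higher and 42 lower, against 177 and 221. With all 9 libraries in the fit the calls were 0 and 3. DESeq2 called 532 and 728, and 470 and 533 on all 9 libraries. Without a filter the calls were 328 and 389, and at an adjusted p under 0.1 they were 371 and 485. Leaving out a library or pair gave 133 to 2146 higher and 285 to 2107 lower genes. The highest counts (2093 to 2146) came without replicate 3 of either group or both. Under the block, a library whose partner is left out carries no weight in the contrast. The cause of the other shifts was not tested.

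Without 1 pair, 2717 to 4028 genes were higher and 2844 to 4201 lower in the remaining pairs, 68 to 202 and 128 to 205 by at least 1 in each, and 1885 to 2772 and 1952 to 2883 did not overlap, as fewer pairs ask for less agreement. With filterByExpr alone, 170 and 252 genes moved by at least 1 in each pair and 1845 were lower without overlap. The median of the matrix glycoproteins ran from −1.11 to −0.796 without 1 library or pair, that of the growth factors from −0.162 to −0.0039 (−0.0543 with all 9 libraries), and that of axon guidance from −0.0554 to −0.0203 (−0.0424 without the block). The axon guidance median was 0.018 in the main fit, so that its sign turned in these settings. The Wnt median was −0.484 without a filter, which admits genes of low count. The p53 median of 0.0239 turned to −0.00791 with upper-quartile factors and ran from −0.0162 to 0.0568 without 1 library or pair. The photoreceptor median turned to −0.0462 with filterByExpr alone and −0.0662 without a filter, where more genes enter. The log2 fold changes of 35 genes, those with the largest changes or pair differences and *Hbegf*, *Ptgs2* and *Smarca1*, kept their sign in 19 settings.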

Other observations

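Of the 398 called genes, 270 were in none of the lists, 137 of them higher and 133 lower. The genes in this section were picked from these after their values had been seen, by what they are known to do, so that nothing is claimed for their groups. *Ank* and *Enpp1*, which supply the extracellular pyrophosphate that restrains mineral, both rose. *Ank* measured 80.7, 102 and 309 CPM in control and 375, 526 and 700.0 CPM with metatherian CRX (log2 fold change 1.92 ± 0.27 SE, adjusted p = 0.0365 by edgeR), and *Enpp1* 94.7, 108 and 128 CPM against 264, 356 and 288 CPM (log2 fold change 1.46 ± 0.14 SE, adjusted p = 0.0233 by edgeR). Neither gene overlapped between the groups, and like *Dmp1* and *Spp1* they are known from bone. The prostaglandin genes moved in opposite senses, with *Ptgs1*, cyclooxygenase-1, rising from 15.7, 21.9 and 61.6 to 72.1, 74.0 and 117 CPM (log2 fold change 1.62 ± 0.27 SE, adjusted p = 0.0482 by edgeR) and *Hpgd*, which breaks prostaglandins down, falling from 53.9, 29.1 and 3.76 to 27.0, 17.2 and 2.27 CPM (log2 fold change −0.83 ± 0.12 SE, adjusted p = 0.0412 by edgeR). *Hpgd* overlapped between the groups, with control replicate 3 below metatherian CRX replicate 1. *Gas1* (−1.30) and *Boc* (−0.99), coreceptors of Hedgehog ligands, and the transcription factor *Gli2* (−1.16) fell, while the Reactome set of Hedgehog signalling had 3 of 96 genes called lower, 0 higher, and a median of 0.059.

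*Cdhr1*, a cadherin of photoreceptor outer segments, measured 4.33, 5.40 and 4.48 CPM in control and 12.1, 15.8 and 7.80 CPM with metatherian CRX (log2 fold change 1.28 ± 0.21 SE, adjusted p = 0.0493 by edgeR), without overlap. *Ivl*, involucrin of the keratinocyte envelope, measured 1.46, 2.77 and 3.94 CPM against 4.19, 5.47 and 14.0 CPM (log2 fold change 1.45 ± 0.23 SE, adjusted p = 0.0465 by edgeR). Of enzymes that build O-linked sugar chains, *Galnt3* (1.67), *Galnt7* (0.87), *Gcnt1* (1.44) and *Gcnt4* (0.79) rose and *Galnt13* fell (−0.99), and the Reactome set of O-linked glycosylation had 5 genes called higher and 2 lower of 27, with pair medians of −0.010, −0.025 and −0.033. Both subunits of soluble guanylate cyclase fell, *Gucy1a3* (−2.24) and *Gucy1b3* (−0.98), and *Prkg2*, a kinase that cyclic GMP activates, rose (1.72). The most abundant lowered genes in no list were *Fstl1*, a secreted glycoprotein, at 3190.2 CPM in control and 1853 CPM with metatherian CRX, and *Prss23*, a secreted protease, at 1230.5 and 595 CPM. *Ptx3*, long pentraxin 3, fell from 1131, 799.6 and 117 to 156, 72.9 and 30.5 CPM (log2 fold change −2.76 ± 0.32 SE, adjusted p = 0.0275 by edgeR), again with control replicate 3 below metatherian CRX replicate 1.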
